A study of Mus musculus with 15 samples.

Results

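The genes described here are the machinery of the lysosome: subunits of the proton pump that acidifies it, enzymes and cofactors that work in its lumen, proteins of its membrane, and the transcription factors of the MiT family. They were chosen by symbol, and each gene was found on the arrays through the RefSeq accession of its probe. Of 38 listed genes, 37 had a matched probe and all 37 passed the filter on dim probes, out of 14192 genes tested. Cd68, the remaining listed gene, was not analysed here. The cells were mouse macrophages grown from bone marrow for 1 week in the growth factor M-CSF. Knockout (KO) cells had the genotype Junb-fl/fl Lyz2-Cre+/+, so that Cre recombinase, driven by the myeloid gene Lyz2 and present in both of its copies, can delete Junb, whose product pairs with other proteins to form AP-1 transcription factors. Wild type (WT) cells were C57BL/6, also the genetic background of the KO cells. Cells were treated for 4 h with 100 ng/ml lipopolysaccharide (LPS), a cell wall component of Gram-negative bacteria, or left untreated. There were 3 arrays of LPS-treated KO cells, 4 of untreated KO cells, 4 of LPS-treated WT cells and 4 of untreated WT cells. Replicates were separate wells, so p-values measure the spread between wells, which may be technical.

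The vacuolar ATPase (V-ATPase) uses ATP to pump protons into the lysosome. Its V1 sector, in the cytosol, splits ATP, and its V0 sector, in the membrane, carries the protons. The acid lumen activates hydrolases that break down lipids, glycans and proteins, and membrane proteins export the products. The MiT factors TFEB, TFE3 and MITF bind a promoter element with the core CACGTG and drive many lysosomal genes. Macrophages rely on these organelles to digest what they engulf.

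The promoters of the genes are shown for the 2 elements the study's factors are known to bind. Of the 38 genes, 31 have a promoter window in RefSeq (build GRCm38.p6), 300 bases long, from 250 before to 50 after a transcription start. The palindrome TCACGTGA, a form of the MiT element, was found in windows of 5 of these 31 genes (16.1%), against 1.12% of all 27025 genes with a window. The shorter core CACGTG, which every such palindrome contains, was found in 8 of the 31 genes (25.8%), against 8.09% of all genes. The AP-1 element TGANTCA, with any base at N, was found in 5 of the 31 genes (16.1%), against 8.97% of all genes. Its form was TGAGTCA in Psap, Cd68 and Neu1, TGATTCA in Atp6v0a1 and TGAATCA in Tfe3. Both strands were searched, and a match is a description of the letters, not of binding. The stretches below hold the palindrome of a membrane channel gene (Mcoln1), of 3 pump genes (Atp6v0d1, Atp6v0e and Atp6v1a) and of a hydrolase gene (Gla), and the AP-1 element of the pump gene Atp6v0a1, whose values follow. Capitals mark the element, and each sequence runs 5′ to 3′ on the strand of its gene.
Mcoln1, chr8:3500427-3500518, plus strand: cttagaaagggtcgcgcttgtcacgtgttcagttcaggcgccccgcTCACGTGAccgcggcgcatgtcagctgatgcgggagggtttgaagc
Atp6v0d1, chr8:105566061-105566114, minus strand: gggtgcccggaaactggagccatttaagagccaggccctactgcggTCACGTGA
Atp6v0e, chr17:26676352-26676405, plus strand: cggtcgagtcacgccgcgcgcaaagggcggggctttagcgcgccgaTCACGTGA
Atp6v1a, chr16:44139338-44139437, minus strand: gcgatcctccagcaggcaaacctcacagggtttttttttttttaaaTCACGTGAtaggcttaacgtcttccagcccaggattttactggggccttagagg
Gla, chrX:134601147-134601246, minus strand: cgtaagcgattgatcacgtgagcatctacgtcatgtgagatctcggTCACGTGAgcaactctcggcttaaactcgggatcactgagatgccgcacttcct
Atp6v0a1, chr11:101010241-101010339, plus strand: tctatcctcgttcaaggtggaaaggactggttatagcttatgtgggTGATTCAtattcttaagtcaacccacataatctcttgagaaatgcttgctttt
The stretch of Gla also holds a second copy of the palindrome, in lower case, upstream of the marked one. Of the 5 genes with the palindrome, Mcoln1 fell with LPS in both genotypes, Atp6v0d1 fell in KO cells, and Atp6v0e, Atp6v1a and Gla passed the test in neither.

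Levels are given as log2 of the background-subtracted signal over the 75th percentile of the array, so 0 is the signal that 3 in 4 spots stay below, and differences are LPS minus untreated or KO minus WT on that scale, with the standard error (SE) of the fit. The test was limma's, with p-values adjusted by Benjamini-Hochberg over all 14192 genes and a threshold of 0.05. The 75th percentile ranged from 450 to 1400 over the arrays, and 51.0% to 63.2% of spots were well above background. Arrays of the same group correlated with r of 0.96 to 0.997 across genes, and values spread most around their group on untreated KO replicate 3, untreated WT replicate 1 and LPS-treated WT replicate 4. Junb was well above background on 0 of 7 KO arrays and on 8 of 8 WT arrays. All KO arrays lay on 1 slide and all WT arrays on another, so in comparisons of KO with WT the effects of slide and genotype cannot be told apart. KO arrays also carried the Y-linked transcript Ddx3y, well above background on 7 of 7 KO and 0 of 8 WT arrays, and lacked Xist, well above background on 0 of 7 KO and 8 of 8 WT arrays. The Y-linked Eif2s3y went with Ddx3y. The Y-linked Kdm5d and Uty did not split the genotypes in this way. Kdm5d was also well above background on 4 untreated and 1 LPS-treated WT arrays, with signals up to 1180. Uty was so on 3 arrays of each WT group, with signals up to 123, against 208 to 1350 in KO cells. Sex, Cre, the loss of Lyz2 signal (869 to 3790 in KO cells, against 346000 to 448000 in WT cells) and the loss of Junb therefore cannot be told apart either. Of 10 macrophage markers 9 were measured, all of them well above background on every array. Their summed signal, in units of the 75th percentile, was 1440 to 1860 in LPS-treated KO, 594 to 1380 in untreated KO, 1630 to 2520 in LPS-treated WT and 1320 to 1540 in untreated WT cells. Lyz2 is among the 9, so its loss in KO cells lowers their sum. Another of the 9, Csf1r, ran from 1.83 to 9.20 in log2 level over the arrays. Of the 9, 4 rose and 1 fell with LPS in each genotype, and KO cells were higher in 2 and lower in 2 with LPS, and higher in 3 and lower in 2 untreated. Markers of other cells moved as well. The 4 of 8 neutrophil markers measured summed to 19.5 to 22 in LPS-treated KO, 6.33 to 6.95 in untreated KO, 51.7 to 70.1 in LPS-treated WT and 7.14 to 12.7 in untreated WT cells. The 4 of 5 dendritic cell markers measured all rose with LPS in both genotypes, with sums of 1.31 to 1.74 in LPS-treated KO, 0.5 to 0.546 in untreated KO, 1.71 to 1.86 in LPS-treated WT and 0.662 to 0.888 in untreated WT cells. Markers of B cells, T and NK cells and erythroid cells summed to at most 0.513 on any array. The part of these cells in the results below was not tested. In bulk RNA, fewer cells of a type and less RNA per cell cannot be told apart.

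After LPS the lysosomal genes moved in both directions. In KO cells 7 of the 37 genes rose, 12 fell and 18 did not pass the test, which makes 51.4% called, against 59.2% of all genes (31.9% called up and 27.3% called down). In WT cells 8 rose, 6 fell and 23 did not pass, which makes 37.8% called, against 60.1% of all genes (35.4% up and 24.8% down). The median change of the 37 genes was -0.15 in KO cells and 0.07 in WT cells, against medians over all genes of 0.19 and 0.16. Both responses were called in the same direction for 13 genes, 7 up and 6 down. A further 6 fell in KO cells and did not pass in WT cells, 1 rose in WT cells and did not pass in KO cells, and 17 passed in neither. The groups did not overlap for 23 genes in KO cells, against 64.8% of all genes, and for 12 in WT cells, against 52.2%. Without LPS-treated KO replicate 3, 13 of the genes were called in KO cells.

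The scaling of the arrays set the direction of many of these small changes. Under quantile normalisation 3 of the 37 genes rose and 26 fell in KO cells, and 3 rose and 28 fell in WT cells, with medians of -0.72 and -0.56 against -0.10 and -0.14 over all genes. Relative to the median of all genes, the median of the 37 was -0.34 in KO and -0.09 in WT cells, and -0.62 and -0.43 under quantile normalisation. The probes of 32 of the 37 genes were among the brightest 3548 of the genes tested, and the medians of these bright genes were 0.42 in KO and 0.43 in WT cells, but -0.14 and -0.20 under quantile normalisation. Over all genes, 4524 rose and 3879 fell in KO cells and 5018 rose and 3514 fell in WT cells, against 3040 and 5199 in KO cells and 3661 and 5137 in WT cells under quantile normalisation. Changes called in the same direction by every scaling tried that holds the gene were the rises of Acp5 and Atp6v1e1 and the falls of Atp6v0a1, Atp6v0d2, Mcoln1, Gusb, Lipa and Tfeb in both genotypes. In KO cells the rise of Mitf and the falls of Atp6v0d1, Npc1, Hexa and Neu1 belong to the same class.

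**Figure D1:**
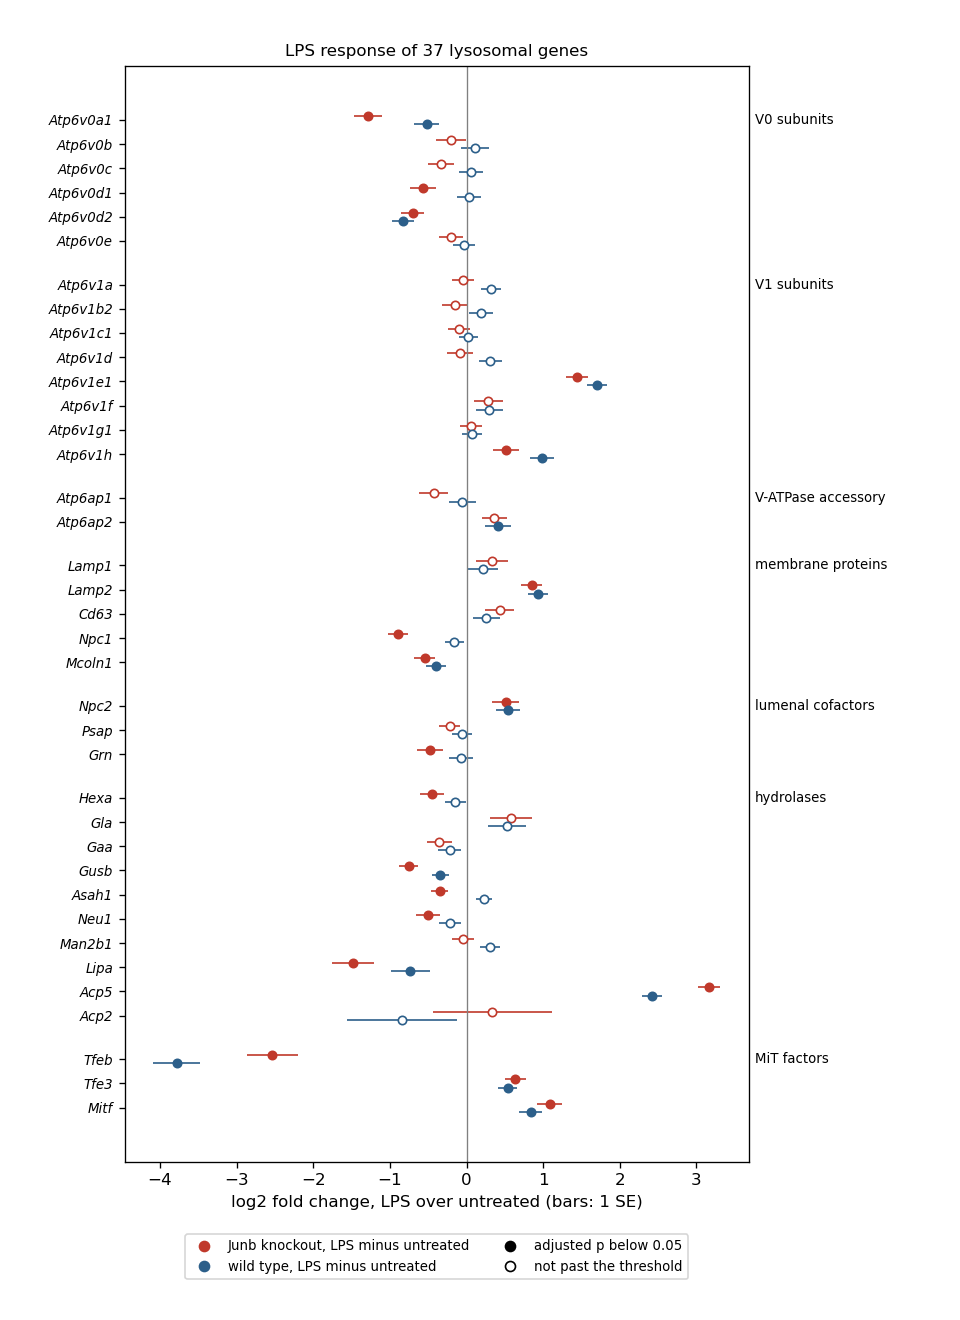
LPS responses of the 37 lysosomal genes, as log2 fold change of LPS-treated over untreated cells (x axis, bars are 1 SE), with KO cells in red and WT cells in blue, genes grouped by role. Filled points passed the adjusted p threshold of 0.05; Acp5 and Atp6v1e1 lie far to the right and Tfeb far to the left in both genotypes, and most other genes lie within 1 log2 unit of 0.

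Of the 16 V-ATPase genes, 2 rose and 3 fell in KO cells, and 3 rose and 2 fell in WT cells, with 11 past the threshold in neither direction in each genotype. This makes 31.2% called in each genotype, against 59.2% of all genes in KO and 60.1% in WT cells. By sector, of the 6 V0 genes 3 fell in KO and 2 in WT cells and none rose, while of the 8 V1 genes 2 rose in each genotype and none fell. The medians of the V0 genes were -0.45 in KO and -0.0025 in WT cells, and those of the V1 genes 0.01 and 0.30. Under quantile normalisation 1 of the 16 rose and 13 fell in KO cells, and 2 rose and 13 fell in WT cells, so that no direction of the pump as a whole holds under every scaling.

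Atp6v1e1, which encodes the E subunit of the stalk that holds V1 in place, rose most among the pump genes. Its log2 levels were 6.27, 6.14 and 6.37 in LPS-treated KO cells, against 4.76, 4.86, 4.70 and 4.94 in untreated KO cells. WT cells had 6.79, 7.12, 6.56 and 6.76 with LPS, against 5.08, 4.97, 4.97 and 5.38 untreated. The groups with and without LPS did not overlap in either genotype. The rise was 1.44 ± 0.14 (adjusted p = 8.51e-07) in KO cells and 1.71 ± 0.13 (adjusted p = 5.87e-08) in WT cells, and 0.79 and 0.86 under quantile normalisation. Atp6v1h, the regulatory H subunit of V1, rose by 0.51 ± 0.17 in KO cells (adjusted p = 0.0179) and by 0.99 ± 0.16 in WT cells (adjusted p = 8e-05). Under quantile normalisation its changes were 0.05 and 0.39, and without LPS-treated KO replicate 4 its KO change was 0.44 (adjusted p = 0.0715).

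Atp6v0a1, the large membrane subunit that lines the proton path, fell in both genotypes. Its levels were 3.82, 3.48 and 3.52 in LPS-treated KO cells, against 4.93, 4.87, 5.18 and 4.59 in untreated KO cells, without overlap. The WT levels were 4.00, 3.63, 3.82 and 3.48 with LPS, against 3.99, 4.12, 4.28 and 4.64 untreated, and the groups overlapped at their edge. The fall was -1.29 ± 0.18 (adjusted p = 3.07e-05) in KO and -0.52 ± 0.17 (adjusted p = 0.0156) in WT cells. The WT fall was -0.40 (adjusted p = 0.0506) without untreated WT replicate 4.

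Atp6v0d2, a d subunit isoform known from osteoclasts and macrophages, fell as well. Its levels were 0.82, 0.58 and 0.66 in LPS-treated KO cells, against 1.46, 1.30, 1.39 and 1.40 in untreated KO cells. In WT cells they were 1.29, 1.24, 1.19 and 0.86 with LPS, against 1.57, 2.21, 2.15 and 1.96 untreated. The groups did not overlap in either genotype, and the falls were -0.70 ± 0.15 (adjusted p = 0.00121) in KO and -0.83 ± 0.14 (adjusted p = 0.000157) in WT cells. A dimmer probe of the gene gave -1.04 and -1.12. The summed signal of 6 osteoclast markers, in units of the 75th percentile, was 2.15 to 2.36 in LPS-treated KO, 2.87 to 4.64 in untreated KO, 3.96 to 5.18 in LPS-treated WT and 6.13 to 6.65 in untreated WT cells. Of the 6 markers, 1 rose and 1 fell in KO cells and 3 rose and 2 fell in WT cells, and Oscar was well above background on 0 of 8 WT arrays. Ctsk and Nfatc1 reached the highest log2 levels of the 6 (up to 2.41 and 1.30), so the sum does not weigh the 6 alike. Within each genotype the summed signal was lower with LPS, as Atp6v0d2 was. Atp6v0d2 had a higher mean in untreated KO than in LPS-treated WT cells (1.39 and 1.15), where the summed signal ran lower, with overlap. The part of these markers in the result was not tested. The isoform Atp6v0d1, the d subunit of most tissues, fell by 0.57 ± 0.17 in KO cells (adjusted p = 0.0107) and changed by 0.03 ± 0.16 in WT cells (adjusted p = 0.88), and the difference between these responses, -0.60 ± 0.23, did not pass (adjusted p = 0.124). Its KO fall was -0.43 (adjusted p = 0.0633) without LPS-treated KO replicate 3.

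The other V0 genes Atp6v0b, Atp6v0c and Atp6v0e, of which the first pair encode the proton-carrying ring, changed by -0.33 to 0.11 and passed in neither genotype. The V1 genes Atp6v1a and Atp6v1b2, the subunits that bind ATP, and Atp6v1c1, Atp6v1d, Atp6v1f and Atp6v1g1 of the stalks and rotor changed by -0.15 to 0.32 and passed in neither. Atp6v1c1 was measured on 3 of the 4 untreated KO arrays. Of the accessory genes, Atp6ap1 changed by -0.43 ± 0.19 in KO and -0.05 ± 0.18 in WT cells and did not pass. Atp6ap2, the (pro)renin receptor, changed by 0.36 ± 0.16 in KO cells (adjusted p = 0.0761) and rose by 0.41 ± 0.16 in WT cells (adjusted p = 0.0462, measured on 3 of 4 LPS arrays). That call was lost in 10 of the 15 fits that left out an array, where its values ran from 0.26 to 0.50, and under quantile normalisation the gene fell by 0.43 in WT cells.

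Among the other genes of the pump and its assembly, 14 of 18 listed were measured, and 6 rose and 5 fell in KO cells, and 5 rose and 3 fell in WT cells. The shares of all genes were 31.9% up and 27.3% down in KO cells, and 35.4% up and 24.8% down in WT cells. The largest WT rises were those of Ncoa7, which encodes a TLDc-domain protein that binds the pump, at 1.15 ± 0.25 in KO and 3.09 ± 0.23 in WT cells, and of Tcirg1, the a3 subunit of osteoclast and immune cell pumps, at 1.00 ± 0.17 and 1.21 ± 0.15. The largest WT falls were those of Dmxl2, a subunit of the rabconnectin complex that assembles the pump, at -1.31 ± 0.20 in KO and -1.39 ± 0.19 in WT cells, and of Rogdi, another rabconnectin subunit, at -1.45 ± 0.18 and -1.13 ± 0.16. The responses differed for 3 of these 14 genes, against 9.92% of all genes. They were Ncoa7 (-1.94 ± 0.34, adjusted p = 0.00274), Meak7 (-0.93 ± 0.25, adjusted p = 0.0312) and Vma21 (-0.84 ± 0.24, adjusted p = 0.0425), each lower in KO cells.

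**Figure D2:**
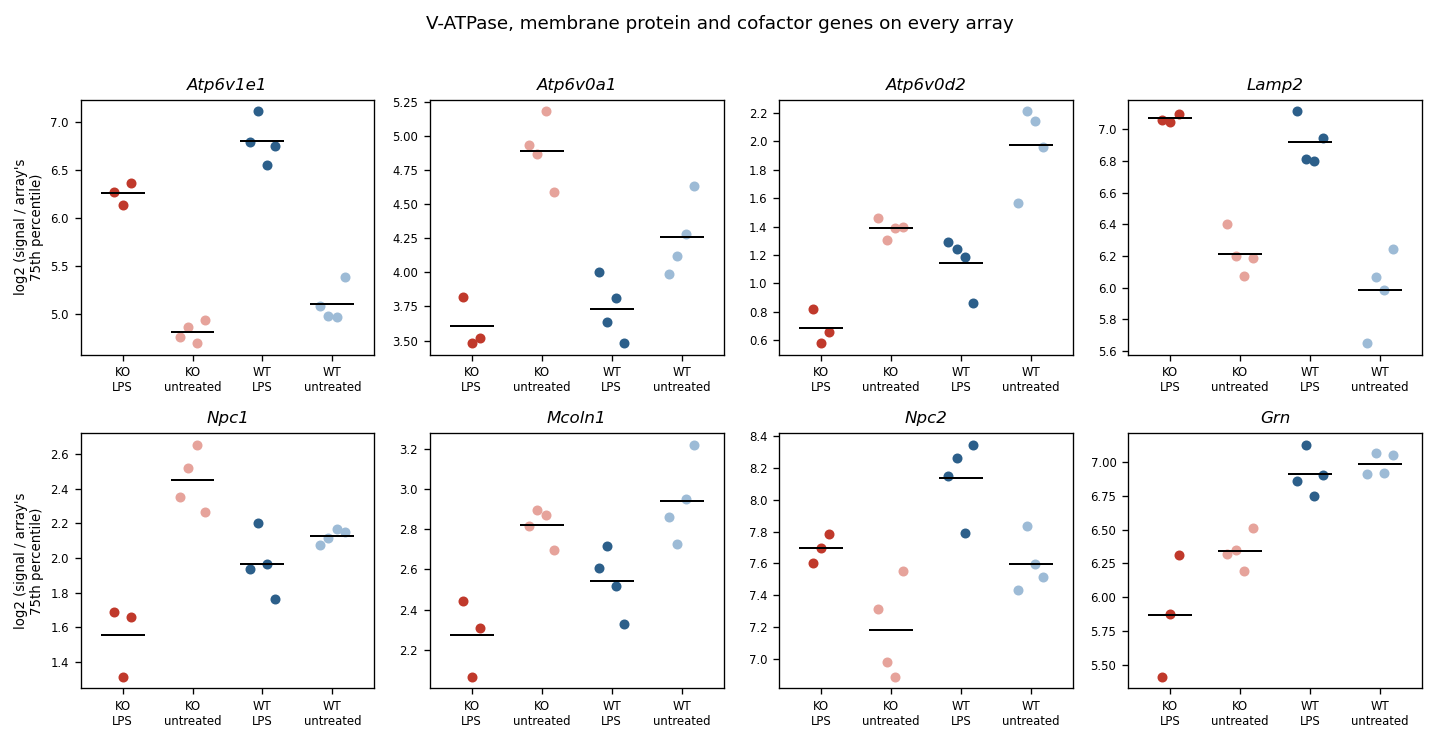
Log2 level on every array (y axis) of 8 genes of the pump, the lysosomal membrane and the lumenal cofactors, in KO LPS, KO untreated, WT LPS and WT untreated cells; points are arrays and bars are group means. Atp6v1e1 and Lamp2 are higher with LPS on every array of both genotypes, Atp6v0d2 and Mcoln1 are lower, and Npc1 is lower on every LPS array in KO cells while its WT groups overlap.

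Of the 5 membrane protein genes, 1 rose and 2 fell in KO cells, and 1 rose and 1 fell in WT cells. This makes 60% called in KO and 40% in WT cells, against 59.2% and 60.1% of all genes. Lamp2, a glycoprotein that coats the lysosomal membrane, had levels of 7.06, 7.04 and 7.10 in LPS-treated KO cells, against 6.40, 6.20, 6.07 and 6.19 in untreated KO cells. WT cells had 7.11, 6.81, 6.80 and 6.95 with LPS, against 5.65, 6.07, 5.99 and 6.25 untreated. The groups did not overlap, and the rise was 0.85 ± 0.14 (adjusted p = 0.000107) in KO and 0.93 ± 0.13 (adjusted p = 2.07e-05) in WT cells. The rise was not called under quantile normalisation, at 0.12 and 0.14, and a second probe of Lamp2 gave 0.27 and 0.39, neither of which passed (adjusted p = 0.216 and 0.0558).

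Npc1, the membrane transporter that exports cholesterol from the lysosome, fell with LPS in KO cells. Its levels were 1.69, 1.31 and 1.66 in LPS-treated KO cells, against 2.36, 2.52, 2.65 and 2.27 in untreated KO cells, without overlap. The WT levels were 1.94, 2.21, 1.97 and 1.76 with LPS, against 2.08, 2.11, 2.17 and 2.15 untreated, with overlap. Npc1 fell by 0.90 ± 0.13 in KO cells (adjusted p = 4.98e-05) and changed by -0.16 ± 0.12 in WT cells (adjusted p = 0.291), a difference of -0.74 ± 0.18 (adjusted p = 0.0206). That difference was -0.62 (adjusted p = 0.0635) without LPS-treated KO replicate 3, and it also lost its call with normexp and quantile normalisation, in the deposited value table and with the replicate block (adjusted p of up to 0.167). Its partner Npc2, a soluble protein that hands cholesterol to Npc1, rose by 0.51 ± 0.17 (adjusted p = 0.0211) in KO and 0.54 ± 0.16 (adjusted p = 0.00966) in WT cells. Npc2 levels were 7.60, 7.69 and 7.79 in LPS-treated KO cells, against 7.31, 6.98, 6.89 and 7.55 in untreated KO cells. In WT cells they were 8.15, 8.26, 7.79 and 8.34 with LPS, against 7.43, 7.83, 7.60 and 7.51 untreated. The groups did not overlap in KO cells and overlapped in WT cells. Under quantile normalisation Npc2 changed by -0.13 and 0.05, and the KO call was lost without any 1 of 4 KO arrays (adjusted p of up to 0.0706).

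Mcoln1, a calcium release channel of the lysosome and a known MiT target, had levels of 2.44, 2.07 and 2.31 in LPS-treated KO cells, against 2.82, 2.89, 2.87 and 2.69 in untreated KO cells. WT cells had 2.61, 2.71, 2.52 and 2.33 with LPS, against 2.86, 2.73, 2.95 and 3.22 untreated. No groups overlapped, and the falls were -0.55 ± 0.14 (adjusted p = 0.00358) and -0.40 ± 0.13 (adjusted p = 0.015). Lamp1, another membrane glycoprotein, and Cd63, a tetraspanin, changed by 0.21 to 0.43 and did not pass. The Lamp1 signal, 214540 to 350600, lay at the bright end of the arrays.

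Among the other membrane proteins, all 25 listed were measured, and 5 rose and 9 fell in KO cells, and 11 rose and 8 fell in WT cells. The shares of all genes were 31.9% up and 27.3% down in KO cells, and 35.4% up and 24.8% down in WT cells. The largest WT rises were those of the cation channel Mcoln2, a paralog of Mcoln1, at 2.31 ± 0.15 in KO and 2.13 ± 0.14 in WT cells, and of the sialomucin Cd164, at 0.88 ± 0.17 and 1.97 ± 0.16. The largest WT falls were those of the sialic acid exporter Slc17a5, at -1.87 ± 1.09 in KO cells (adjusted p = 0.155) and -3.40 ± 1.01 in WT cells, and of the 2-pore channel Tpcn1, at -2.70 ± 0.20 in KO and -2.81 ± 0.18 in WT cells. The call of a difference between the responses was made for Cd164 (-1.09 ± 0.23, adjusted p = 0.00935), Scarb2 (-0.78 ± 0.16, adjusted p = 0.00825), Mfsd1 (-0.69 ± 0.20, adjusted p = 0.0489) and the nucleoside transporter Slc29a3 (-1.43 ± 0.23, adjusted p = 0.00153), each lower in KO cells. These 4 of 25 genes stand beside 9.92% of all genes.

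Of the other lumenal cofactors, Psap, the precursor of the saposins that help hydrolases reach their lipids, changed by -0.22 ± 0.14 in KO and -0.06 ± 0.13 in WT cells and did not pass. Grn, which encodes progranulin, had levels of 5.41, 5.87 and 6.31 in LPS-treated KO cells, against 6.32, 6.35, 6.20 and 6.51 in untreated KO cells. The WT levels were 6.86, 7.13, 6.75 and 6.91 with LPS, against 6.91, 7.07, 6.92 and 7.05 untreated. The groups overlapped in both genotypes. Grn fell by 0.48 ± 0.17 in KO cells (adjusted p = 0.0276) and changed by -0.08 ± 0.16 in WT cells (adjusted p = 0.718), and the KO call was lost without any 1 of 4 KO arrays (adjusted p of up to 0.177), with values from -0.70 to -0.25 over the fits that left out an array.

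Of the 10 hydrolase genes, 1 rose and 5 fell in KO cells (60% called), and 1 rose and 2 fell in WT cells (30% called). The shares called among all genes were 59.2% in KO and 60.1% in WT cells. The medians of the 10 hydrolase genes were -0.35 in KO and -0.18 in WT cells, and -0.96 with 7 falls in KO cells under quantile normalisation. Acp5, the tartrate-resistant acid phosphatase known as a marker of osteoclasts and activated macrophages, rose most. Its levels were 5.46, 5.49 and 5.45 in LPS-treated KO cells, against 2.25, 2.26, 2.41 and 2.28 in untreated KO cells. In WT cells they were 5.10, 5.29, 5.11 and 4.75 with LPS, against 2.28, 2.79, 2.70 and 2.82 untreated. Every LPS array lay more than 1 log2 unit above every untreated array. Acp5 rose by 3.17 ± 0.15 in KO cells (adjusted p = 3.23e-10) and 2.42 ± 0.13 in WT cells (adjusted p = 1.84e-09), and the difference of 0.75 ± 0.20 passed (adjusted p = 0.0293). That difference passed under each of the 5 scalings, with values from 0.73 to 0.90, but was lost in 8 of the 15 fits that left out an array, where it ran from 0.65 to 0.87. A second probe gave 3.17 and 2.64, with a difference of 0.53 ± 0.23 that did not pass (adjusted p = 0.17). The summed signal of the osteoclast markers described above was lower with LPS in both genotypes, where Acp5 was higher. Single markers moved in both directions, and their part in the rise of Acp5 was not tested.

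Lipa, the acid lipase that breaks down cholesterol esters and triglycerides, fell in both genotypes. Its levels were 4.50, 3.68 and 4.24 in LPS-treated KO cells, against 5.89, 4.93, 6.29 and 5.37 in untreated KO cells. WT cells had 4.53, 4.43, 4.37 and 4.28 with LPS, against 4.87, 5.01, 5.31 and 5.38 untreated, and no groups overlapped. The falls were -1.48 ± 0.28 (adjusted p = 0.000364) in KO and -0.74 ± 0.26 (adjusted p = 0.0226) in WT cells. The WT call was lost without LPS-treated WT replicate 4, untreated WT replicate 3 or untreated WT replicate 4 (adjusted p of up to 0.0593).

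Gusb, the β-glucuronidase, had levels of 4.81, 4.51 and 4.77 in LPS-treated KO cells, against 5.53, 5.48, 5.40 and 5.41 in untreated KO cells, without overlap. The WT levels were 5.41, 5.54, 5.26 and 5.18 with LPS, against 5.51, 5.74, 5.64 and 5.87 untreated, with overlap. It fell by 0.76 ± 0.12 (adjusted p = 0.000103) in KO and by 0.34 ± 0.11 (adjusted p = 0.0177) in WT cells. The WT change was at the threshold (adjusted p of up to 0.0503) without replicate 4 of either WT group.

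Asah1, the acid ceramidase, fell with LPS in KO cells. Its levels were 5.68, 5.54 and 5.79 in LPS-treated KO cells, against 6.09, 6.05, 6.11 and 5.83 in untreated KO cells. In WT cells they were 5.90, 6.05, 5.85 and 5.82 with LPS, against 5.46, 5.78, 5.70 and 5.74 untreated. The LPS arrays were the lower ones in KO cells and the higher ones in WT cells, without overlap in either. Asah1 fell by 0.35 ± 0.12 in KO cells (adjusted p = 0.0178) and changed by 0.23 ± 0.11 in WT cells (adjusted p = 0.0796), a difference of -0.58 ± 0.16 (adjusted p = 0.0334). That call was lost in 8 of the 15 fits that left out an array (-0.65 to -0.51, adjusted p of up to 0.098) and under quantile normalisation, where the WT change was a fall of 0.56. A second probe gave -0.66 ± 0.23 (adjusted p = 0.0842). The KO change was -0.29 (adjusted p = 0.0795) without LPS-treated KO replicate 3.

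The remaining hydrolases changed less. Hexa, the α subunit of β-hexosaminidase, fell by 0.45 ± 0.15 in KO cells (adjusted p = 0.0223) and Neu1, the sialidase, by 0.50 ± 0.15 (adjusted p = 0.0123), while in WT cells they changed by -0.14 ± 0.14 and -0.22 ± 0.14. Without LPS-treated KO replicate 3 the KO changes were -0.33 (adjusted p = 0.117) and -0.42 (adjusted p = 0.0572). Gla, the α-galactosidase, Gaa, the acid α-glucosidase, and Man2b1, the acid α-mannosidase, changed by -0.36 to 0.58 and passed in neither genotype. A much dimmer second probe of Gaa fell by 1.06 ± 0.27 in KO cells (adjusted p = 0.00416). Acp2, the other acid phosphatase, ran from 3.50 to 7.55 over the arrays on the probe used, with changes of 0.34 ± 0.78 and -0.84 ± 0.72, and its second probe changed by -0.26 ± 0.19 and -0.31 ± 0.18, which did not pass (adjusted p = 0.259 and 0.161).

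Among the other hydrolases and cofactors, all 29 listed were measured, and 2 rose and 16 fell in KO cells, and 2 rose and 10 fell in WT cells, with medians of -0.50 and -0.21. The shares of all genes were 31.9% up and 27.3% down in KO cells, and 35.4% up and 24.8% down in WT cells. Under other scalings this list was not counted. The rises named by size were those of the heparan N-sulfatase Sgsh, at 2.23 ± 0.62 in KO and 3.24 ± 0.57 in WT cells, and of the carboxypeptidase Scpep1, at 0.53 ± 0.20 and 0.60 ± 0.18. The largest WT falls were those of the lysosomal phospholipase Pla2g15, at -2.90 ± 0.17 in KO and -2.56 ± 0.16 in WT cells, and of the hyaluronidase Hyal1, at -1.90 ± 0.21 and -1.83 ± 0.19. The responses differed for Glb1 (-0.85 ± 0.23, adjusted p = 0.035), Naglu (-0.83 ± 0.23, adjusted p = 0.0338) and Ppt1 (-0.90 ± 0.21, adjusted p = 0.017), each lower in KO cells. These 3 of 29 genes are near the share of 9.92% over all genes.

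**Figure D3:**
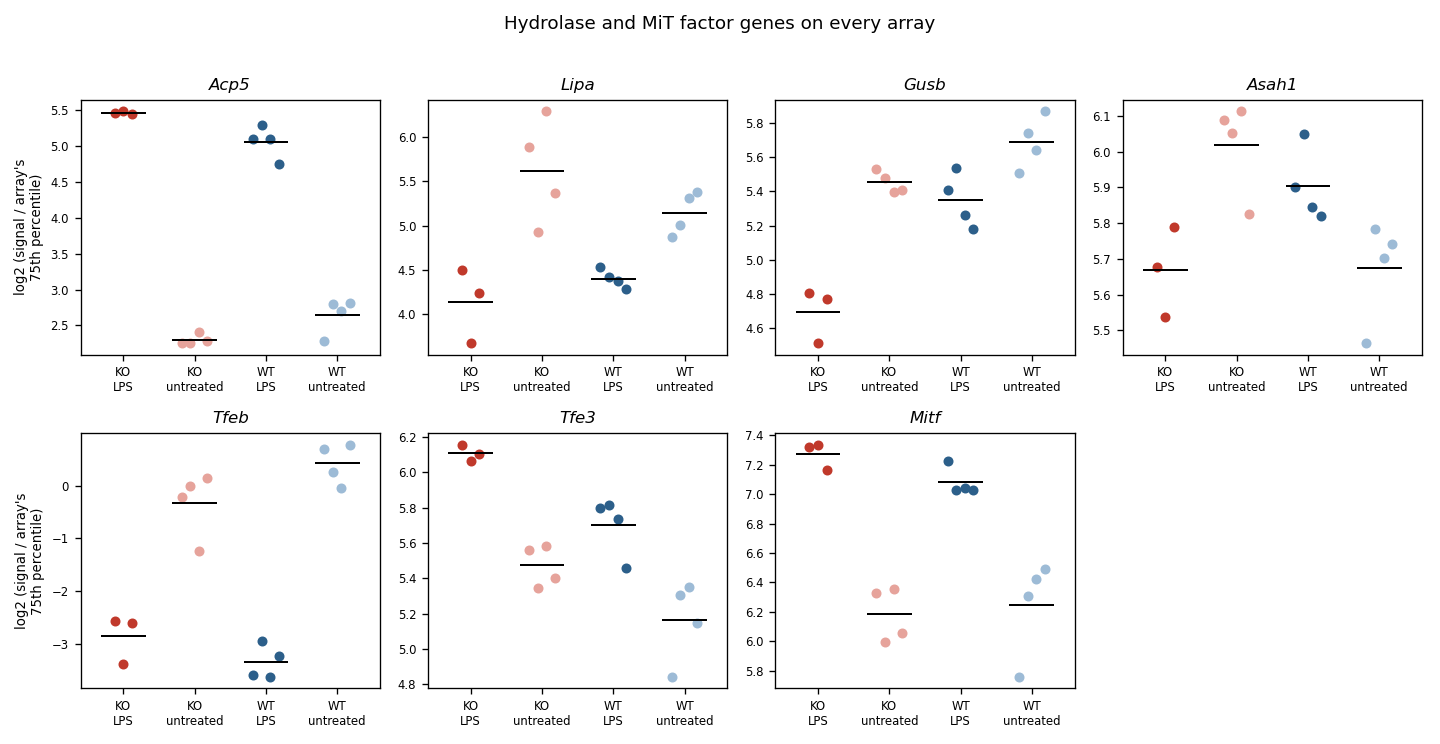
Log2 level on every array (y axis) of 4 hydrolase genes and the 3 MiT factors, in KO LPS, KO untreated, WT LPS and WT untreated cells; points are arrays and bars are group means. Acp5 and Mitf are higher and Lipa and Tfeb lower on every LPS array of both genotypes, and Asah1 is lower on every LPS array in KO cells and higher on every LPS array in WT cells, where the change did not pass.

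The MiT factors did not respond alike. Tfeb had levels of -2.57, -3.40 and -2.60 in LPS-treated KO cells, against -0.21, 0.00, -1.24 and 0.15 in untreated KO cells. WT cells had -3.59, -2.96, -3.63 and -3.24 with LPS, against 0.71, 0.27, -0.04 and 0.78 untreated. Its probe was well above background on all 4 untreated arrays of each genotype and on no LPS array, so the size of the fall is uncertain. The fitted fall in KO cells was -2.53 ± 0.33 (5.79-fold, adjusted p = 1.34e-05), with confidence limits of -3.26 and -1.81. In WT cells it was -3.78 ± 0.30 (13.8-fold, adjusted p = 8.76e-08), with confidence limits of -4.46 and -3.11. Setting each LPS array to the higher of the probe's own signal and the lowest signal well above background changed nothing. The probe's own signal was the higher on every LPS array, so this gives no check on the size of the fall. The fitted difference between the responses, 1.25 ± 0.45, did not pass (adjusted p = 0.0981) and rests on LPS levels not well above background.

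Mitf rose. Its levels were 7.32, 7.33 and 7.17 in LPS-treated KO cells, against 6.33, 5.99, 6.36 and 6.06 in untreated KO cells. The WT levels were 7.22, 7.03, 7.04 and 7.03 with LPS, against 5.76, 6.31, 6.42 and 6.49 untreated, and no groups overlapped. The rises were 1.09 ± 0.16 (adjusted p = 5.13e-05) in KO and 0.84 ± 0.15 (adjusted p = 0.000246) in WT cells. A dimmer probe gave 1.13 and 1.09, both past the threshold. Under quantile normalisation the changes were 0.36 and 0.10, and the WT one was not called.

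Tfe3 had levels of 6.16, 6.07 and 6.11 in LPS-treated KO cells, against 5.56, 5.35, 5.59 and 5.40 in untreated KO cells. In WT cells they were 5.80, 5.82, 5.74 and 5.46 with LPS, against 4.84, 5.31, 5.35 and 5.15 untreated, without overlap in either genotype. It rose by 0.64 ± 0.13 (adjusted p = 0.00103) in KO and 0.54 ± 0.12 (adjusted p = 0.00184) in WT cells on this scale. Under quantile normalisation it changed by -0.09 in KO cells and fell by 0.25 in WT cells (adjusted p = 0.0155), and a second probe gave 0.03 and 0.34 and did not pass, so the direction for Tfe3 is not settled.

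Among the regulators of the MiT factors, 12 of 13 listed were measured, and 2 rose and 4 fell in KO cells, and 2 rose and 3 fell in WT cells. The shares of all genes were 31.9% up and 27.3% down in KO cells, and 35.4% up and 24.8% down in WT cells. The rises were those of Tfec, the fourth MiT gene, at 4.30 ± 0.12 in KO and 3.42 ± 0.11 in WT cells, and of Lamtor3, a subunit of the Ragulator complex that anchors mTORC1 signalling at the lysosome, at 0.55 ± 0.21 and 0.77 ± 0.19. The rise of Tfec was larger in KO cells by 0.88 ± 0.17 (adjusted p = 0.00467), the only difference called among the 12, against 9.92% of all genes. The largest WT falls were those of folliculin, Flcn, which acts on the Rag GTPases, at -1.38 ± 0.21 and -1.87 ± 0.20, and of Lamtor4, at -1.58 ± 0.19 and -1.58 ± 0.18.

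**Figure D4:**
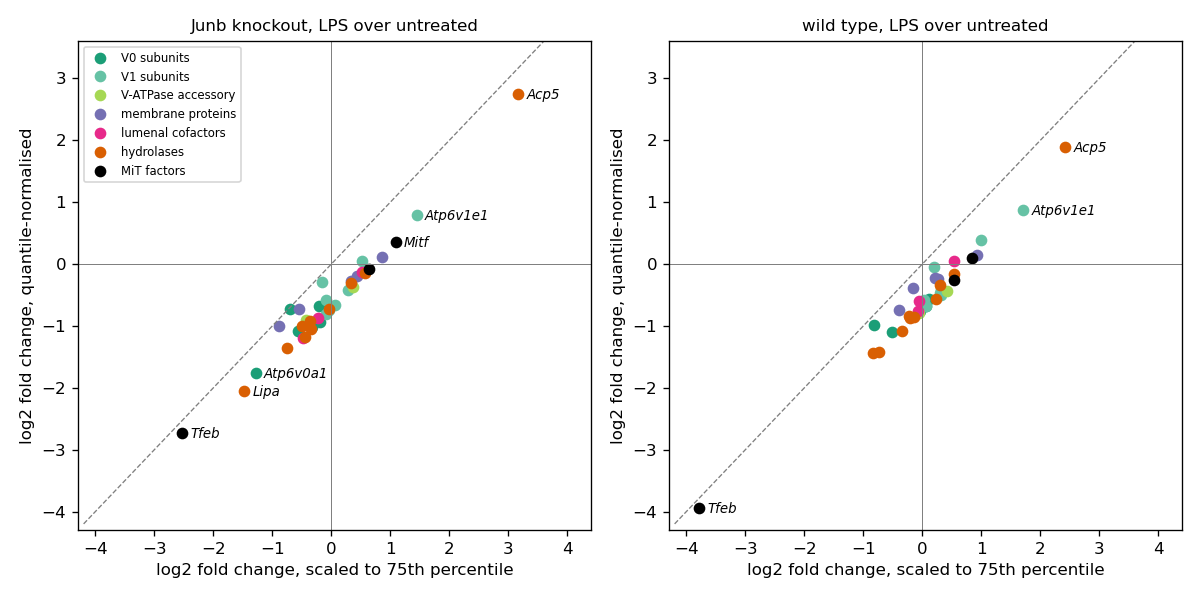
LPS response of each of the 37 genes (log2 fold change) with arrays scaled to the 75th percentile (x axis) and after quantile normalisation (y axis), in KO cells (left) and WT cells (right), coloured by role; the dashed line marks equal values. The points lie below the line, and genes between 0 and about 1 on the x axis mostly lie below 0 on the y axis, while Acp5 and Atp6v1e1 stay above 0 and Tfeb far below.

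The difference between the LPS responses passed for 3 of the 37 genes (8.11%), against 9.92% of all genes (2.49% up and 7.43% down). These were Acp5, with a larger response in KO cells, and Npc1 and Asah1, with lower ones. The count was 0 to 4 over the fits that left out 1 array, with 0 without LPS-treated KO replicate 3. With the replicate number as a block within each genotype, none of the 3 passed (adjusted p = 0.167 for Npc1, 0.186 for Acp5 and 0.24 for Asah1). Among the 16 V-ATPase genes, 15 had a negative difference and none passed (lowest adjusted p = 0.0697, for Atp6v0a1 at -0.76 ± 0.25), beside a median of -0.09 over all genes.

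With LPS, KO and WT cells differed in 12 of the 37 genes (32.4%), 2 higher and 10 lower in KO cells, against 29.7% of all genes (13.2% higher and 16.4% lower). The groups did not overlap for 19 of the 37 genes, against 41.4% of all genes. The lower ones were 5 pump genes (Atp6v0c, Atp6v0d1, Atp6v0d2, Atp6v1e1 and the accessory gene Atp6ap1), Npc1, the cofactor genes Psap and Grn, and the hydrolase genes Hexa and Gusb. Grn differed most, by -1.05 ± 0.17 (adjusted p = 0.000514), followed by Atp6ap1 at -0.92 ± 0.19 (adjusted p = 0.00269), Atp6v0c at -0.80 ± 0.17 (adjusted p = 0.00311), and Gusb at -0.65 ± 0.12 (adjusted p = 0.0014). Atp6v0c levels were 5.51, 5.33 and 5.86 in LPS-treated KO cells, against 6.18, 6.79, 6.21 and 6.29 in LPS-treated WT cells. The higher ones were Gaa, at 0.58 ± 0.16 (adjusted p = 0.0153), and Tfe3, at 0.41 ± 0.13 (adjusted p = 0.0361). With the replicate number as a block the count was 10, as Atp6v0d2 (-0.48) and Tfe3 (0.39) lost their calls. Without LPS-treated KO replicate 3 the count was 5, and over the fits that left out 1 array Psap lost its call in 10, Tfe3 and Atp6v0d2 in 5 each, Npc1 in 4 and Hexa in 2. A second probe of Atp6ap1 also gave a fall, -0.89 ± 0.21 (adjusted p = 0.00555), while second probes of Gaa (-0.48 ± 0.27), Tfe3 (-0.28 ± 0.22) and Atp6v0d2 (-0.36 ± 0.21) did not pass. Of the genes called, Atp6v0c, Atp6v0d2 and Hexa were lower and Gaa and Tfe3 higher under every scaling tried.

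Untreated cells differed in 7 of the 37 genes (18.9%), 4 higher and 3 lower in KO cells, against 17.6% of all genes (12.7% higher and 4.89% lower), and groups did not overlap for 9 of the 37, against 20.6% of all genes. Gaa was higher by 0.72 ± 0.15 (adjusted p = 0.00454), Atp6v0a1 by 0.64 ± 0.17 (adjusted p = 0.0189), Atp6v1d by 0.62 ± 0.16 (adjusted p = 0.0134) and Asah1 by 0.35 ± 0.11 (adjusted p = 0.0403). Grn was lower by -0.64 ± 0.16 (adjusted p = 0.0126), Atp6v0d2 by -0.58 ± 0.14 (adjusted p = 0.0113) and Atp6ap1 by -0.54 ± 0.18 (adjusted p = 0.0487). Gaa levels were 5.23, 4.95, 5.33 and 4.90 in untreated KO cells, against 4.16, 4.49, 4.39 and 4.52 in untreated WT cells, without overlap. Atp6ap1 was lost in 12 and Asah1 in 8 of the 15 fits that left out an array, with adjusted p of up to 0.122 and 0.109, and Atp6v0a1 in 4 (up to 0.0613). Gaa and Atp6v0d2 kept their calls under every scaling tried. Untreated, second probes of Gaa (0.43 ± 0.25, adjusted p = 0.276), Atp6v0d2 (-0.44 ± 0.19, adjusted p = 0.134), Atp6ap1 (-0.29 ± 0.19, adjusted p = 0.335) and Asah1 (0.36 ± 0.16, adjusted p = 0.138) did not pass. On the probes used, Atp6v0d2, Atp6ap1, Grn and Gaa thus differed in the same direction without and with LPS, as values that share the slide of their genotype. The much dimmer second probe of Gaa changed direction between the conditions. Atp6ap1, Atp6ap2, Lamp2, Gla and Tfe3 lie on the X chromosome, and the genotypes also differed in sex-linked transcripts, whose part in these differences was not tested.

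**Figure D5:**
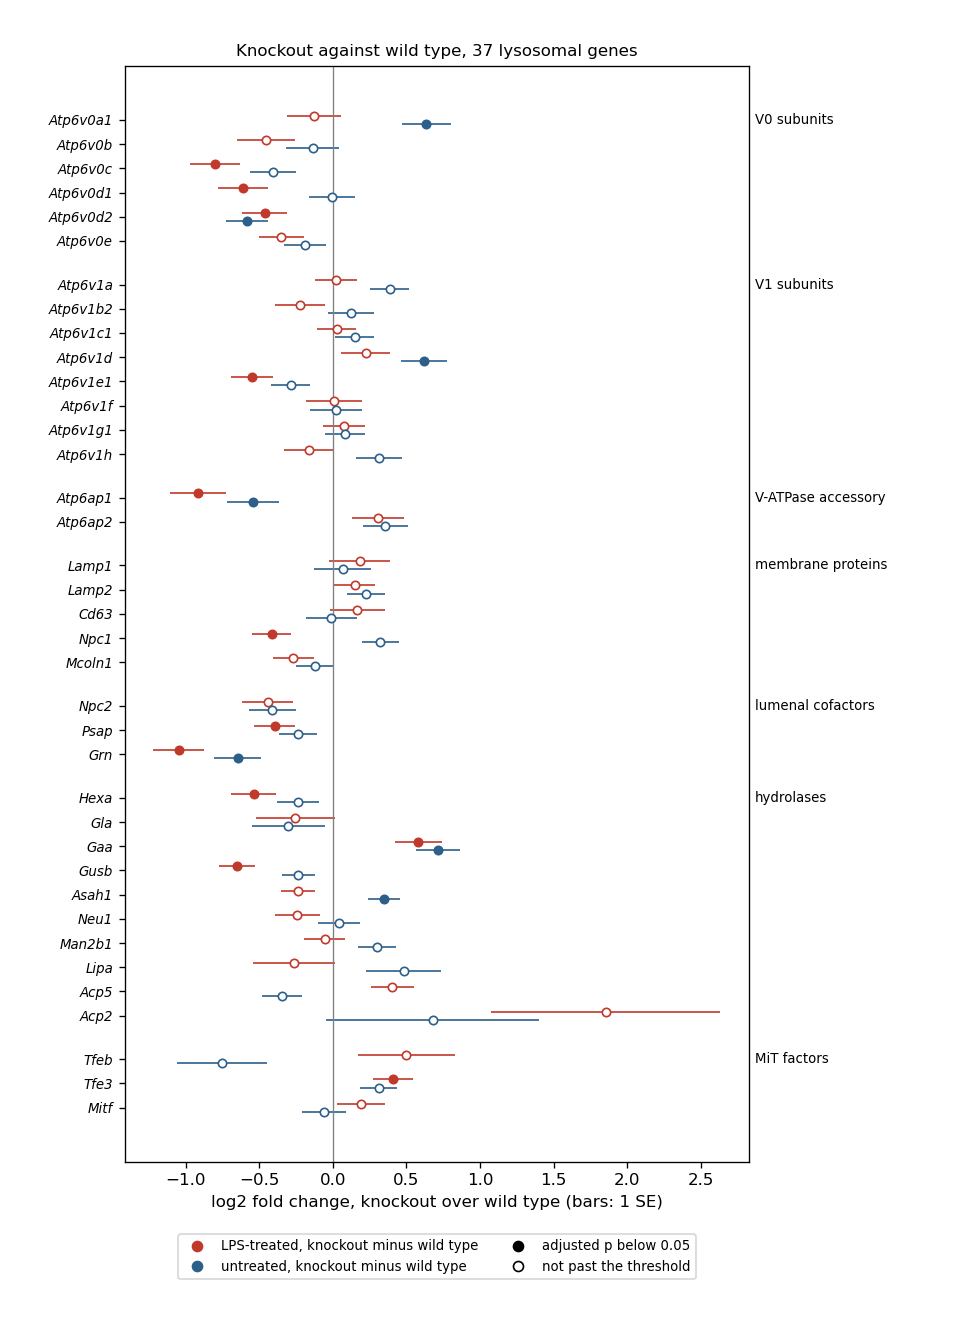
Difference between KO and WT cells for the 37 lysosomal genes, as log2 fold change of KO over WT (x axis, bars are 1 SE), with LPS in red and untreated in blue, genes grouped by role; filled points passed the adjusted p threshold of 0.05. Grn, Atp6ap1 and Atp6v0d2 lie left of 0 and Gaa right of 0 in both conditions, and Acp2 has the widest bars.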

How the data were processed

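RNA of 15 macrophage cultures was hybridised in 1 colour to Agilent arrays and read with Feature Extraction 10.7.3.1, per the file headers. The deposited scanner files give the intensity of each spot after background subtraction within the array. A deposited value table on a log2 scale served as an alternative; its scale and normalisation are not given in the sources used here.

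Each array was divided by its 75th percentile over the 55661 non-control spots marked as outliers on no array, a floor of 0.0467 was set and log2 taken. Probes were named through RefSeq accessions and kept where at least 3 arrays of a group were well above background, and each gene took its brightest kept probe. Of the values, 0.318% were missing. Groups were compared with limma 3.58.1 in R 4.3.3 (lmFit and eBayes over all 4 groups, no covariates), Benjamini-Hochberg adjusted over 14192 genes, and the code was tested on simulated data.

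The genes and lists were chosen with earlier results of these data known. Array values are given for the 3 genes per role with the largest mean LPS change among those called, for genes whose responses differed and for the MiT factors; Atp6v0c and Gaa were added after their values were seen. From the other lists, the 2 largest WT rises and falls are named, and genes whose responses differed were added after their values were seen. Replicate numbers went in as a block as an alternative. Deviations of same-numbered LPS-treated KO and WT arrays correlated positively (r = 0.446, 0.244 and 0.136). Those of same-numbered untreated KO and WT arrays correlated negatively (r = -0.349, -0.276, -0.0728 and -0.394), so these values do not show a pairing across genotypes. Other alternatives were quantile normalisation, normexp (offset 50, on the median spot signal), other percentiles, filters, floors, probe rules and fits, and leaving out each array. The percentile with marked spots and the fit without the 3 most variable arrays were chosen after seeing the data.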

Additional observations from a re-analysis of the deposited data

Results flagged for a closer look

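Single arrays stood apart from the rest of their group in 7 of 109 groups of 4 values, where the gap to the nearest array exceeded Dixon's critical share of the range, and chance gives about 1 in 20. LPS-treated WT replicate 2 was high for Atp6v0b (5.16 against 4.43 to 4.50, 0.911 of the range), Atp6ap1 (5.32 against 4.92 to 4.96, 0.905) and Hexa (6.87 against 6.37 to 6.44, 0.867). LPS-treated WT replicate 4 was low for Atp6v1c1 (3.95 against 4.26 to 4.28, 0.933), and LPS-treated WT replicate 1 was high for Mitf (7.22 against 7.03 to 7.04, 0.923). Untreated KO replicate 2 was high for Atp6ap1 (4.77 against 4.45 to 4.50, 0.845) and untreated KO replicate 3 for Acp5 (2.41 against 2.25 to 2.28, 0.843).

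The LPS response differed between KO and WT cells, by limma's test of the difference, for Npc1 (-0.74), Asah1 (-0.58) and Acp5 (0.75), and none of the 3 calls held without LPS-treated KO replicate 3.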

How the results depend on the processing

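Scaling and single arrays decided most. The number of the 37 genes called in the LPS response was 29 in KO and 31 in WT cells under quantile normalisation, 29 and 30 with normexp and quantile normalisation, and 23 in WT cells with the percentile over probes detected on all arrays, against 19 in KO and 14 in WT cells. The difference of the responses was called for 1 gene with normexp and quantile normalisation, for 1 in the deposited value table and for 0 with the replicate number as a block, against 3. Between KO and WT cells 5 were called with LPS and 2 untreated in the deposited value table, and untreated 13 under quantile normalisation and 4 without the 3 arrays with the largest spread, against 12 and 7. Over the fits that left out 1 array the counts ran from 13 to 21 for LPS in KO cells, 12 to 15 in WT cells, 0 to 4 for the difference, 5 to 14 for KO against WT with LPS and 4 to 8 untreated, and the lowest for KO cells, the difference and KO against WT with LPS all came without LPS-treated KO replicate 3. The replicate block gave 17 genes in KO and 10 in WT cells for LPS; same-numbered arrays with and without LPS correlated from -0.536 to 0.562 and 1 of 3 KO and 1 of 4 WT LPS arrays correlated best with its own number, so these numbers do not pair arrays. Over all genes the difference was called for 74 up and 217 down under the block, 117 and 451 in the value table and 251 and 621 without LPS-treated KO replicate 3, against 353 and 1055; KO against WT with LPS for 1075 and 1653 in the value table and 1327 and 1421 without that array, against 1880 and 2330; and untreated for 861 and 336 in the value table, against 1808 and 694. The sign changes listed next are those of genes called in the main fit or under the alternative, and uncalled ones are left out. Under quantile normalisation the changes that turned their sign were in KO cells Atp6ap2 -0.38, Atp6v1f -0.43, Atp6v1g1 -0.66, Lamp1 -0.27, Npc2 -0.13 and Tfe3 -0.0871, and in WT cells Asah1 -0.56, Atp6ap2 -0.43, Atp6v0b -0.56, Atp6v0c -0.68, Atp6v0d1 -0.68, Atp6v1a -0.40, Atp6v1c1 -0.59, Atp6v1d -0.49, Atp6v1f -0.46, Atp6v1g1 -0.69, Cd63 -0.24, Lamp1 -0.22, Man2b1 -0.35 and Tfe3 -0.25. Called in neither fit, Cd63 (-0.19), Gla (-0.15) and Acp2 (-0.31) in KO cells also turned negative there. So did Atp6v1b2 (-0.06) and Gla (-0.17) in WT cells. With normexp background correction and quantile normalisation the changes that turned their sign were in KO cells Atp6ap2 -0.38, Atp6v1f -0.44, Atp6v1g1 -0.66, Lamp1 -0.29, Npc2 -0.17 and Tfe3 -0.0770, and in WT cells Asah1 -0.64, Atp6ap2 -0.48, Atp6v0b -0.45, Atp6v0c -0.83, Atp6v0d1 -0.80, Atp6v1a -0.55, Atp6v1c1 -0.45, Atp6v1d -0.71, Atp6v1f -0.49, Atp6v1g1 -0.73, Cd63 -0.22, Lamp1 -0.41, Man2b1 -0.49, Npc2 -0.0578 and Tfe3 -0.34. With the percentile over probes detected on all arrays the changes that turned their sign were in WT cells Asah1 -0.22, Atp6ap2 -0.10, Atp6v0d1 -0.41, Atp6v1c1 -0.42 and Atp6v1g1 -0.38. In the deposited value table the changes that turned their sign were in KO cells Asah1 1.12, Grn 1.43 and Tfe3 -0.0754, and in WT cells Man2b1 -0.48 and Tfe3 -0.29, and in the difference of the responses Asah1 1.72, and in untreated KO against WT cells Asah1 -1.89. The value table holds a value of 7.35 for both Grn and Asah1 on untreated KO replicate 3, where the scanner spots were bright. It also holds 7.39 for Gusb and Atp6ap1 on untreated KO replicate 2 and 7.48 for Atp6v1d on LPS-treated WT replicate 3, again with bright scanner spots. The value table was the only 1 of 27 settings to end the LPS-treated KO against WT calls of Gusb, Grn and Atp6ap1. The same holds for the untreated call of Atp6v1d. The cause of these lost calls, and of the other changes of direction or count, was not tested. Over the single genes, settings other than a left-out array gave 1924 values with the same call, 105 newly called and 83 no longer called. A further 53 turned their sign with a call in either fit. Leaving out an array gave 2646, 29, 100 and none. Sign changes without a call in either fit were counted as the same call. Over all settings these were 22 for LPS in KO cells, 33 for LPS in WT cells and 65 for the difference. Between KO and WT cells they were 15 with LPS and 40 untreated. The number of arrays limits the precision.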
